A study of Bos taurus with 6 samples.

Results

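The miRNAs bta-miR-28, bta-miR-151-3p, bta-miR-151-5p and bta-miR-708 are described here as a group because their genes are thought to have been born from LINE2 elements, an old family of retrotransposons. They were chosen by name, and all 4 were found among the 512 miRNAs listed for each library. Small RNA was sequenced from extracellular vesicles (EVs) in the spent medium of bovine granulosa cells, which came from small growing follicles of 3 to 6 mm collected at a slaughterhouse. The control-EVs came from cells kept at 37 °C, and the HS-EVs from cells exposed to heat stress (HS) at 42 °C for 24 h. Both groups shared a first culture of 24 h at 37 °C and a medium with 10% exosome-depleted fetal bovine serum, and each had 3 biological replicates. The cells were a primary culture, so that any other follicular cell carried over and any serum EV that was left could also give RNA.

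A LINE2 insertion can fold into a hairpin when copies of the element lie next to each other in opposite directions, and Drosha and Dicer cut the hairpin into a 5p and a 3p arm. Either arm can be loaded into an Argonaute protein, which it guides to mRNAs through its seed, the bases at its 5′ end. miR-28 and miR-708 are grouped by a common seed, while the 5p and 3p arms of miR-151 have seeds of their own. RefSeq annotates ARS-UCD2.0, which is not the assembly used by the authors. There, MIR28 lies within LPP, MIR151 within PTK2 and MIR708 within TENM4. LPP is an adaptor protein of cell contacts, PTK2 is focal adhesion kinase, and TENM4 is a teneurin of the cell surface. miR-708 is known to be induced together with its host gene by CHOP under endoplasmic reticulum stress.

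The values are normalized read counts, scaled between libraries by the authors with TMM, the trimmed mean of M-values. The reads behind them could be recovered as whole numbers and summed to between 274434 and 2360980 per library. In each of the 6 libraries this sum is larger than the number of reads that the study assigned to annotated miRNAs. The reason was not tested, and the intervals and floors, which rest on the recovered reads, could be too narrow. A single miRNA, bta-miR-1246, took 59.9% to 84.6% of the reads of the control-EVs and 75.6% to 98.6% of those of the HS-EVs. This left 73569 to 235634 reads on other miRNAs in control-EVs and 34141 to 123448 in HS-EVs, the fewest in HS-EVs replicate 1. Shares of the members are therefore given among the reads on other miRNAs. Their Wilson intervals (95%) and the floors of 3 reads cover counting error only. bta-miR-202, enriched in somatic cells of the gonads, had 508 to 2818 reads. All 11 markers of liver and serum, blood cells and muscle that were looked up were found in both groups. Their summed normalized count was 14416 to 27217 in control-EVs and 8793 to 16312 in HS-EVs. Most of it came from bta-miR-122, and the sum follows this miRNA. Among the reads on other miRNAs, bta-miR-122 took 8.70% to 15.5% in control-EVs and 5.32% to 9.72% in HS-EVs. By mean normalized count, 4 of the 11 markers were lower in HS-EVs. By log2 fold change, 10 of 12 were lower, bta-miR-202 included. The part of the markers in the values of the members was not tested. Fewer EVs with a given miRNA and fewer copies of it per EV cannot be told apart.

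The members differed widely in abundance. bta-miR-151-3p was the most abundant of them in each of the 6 libraries, followed by bta-miR-708, bta-miR-151-5p and bta-miR-28. Over the 6 libraries, 1769 reads were assigned to bta-miR-151-3p, 304 to bta-miR-708, 128 to bta-miR-151-5p and 7 to bta-miR-28. By its mean normalized count over all libraries, bta-miR-151-3p stood at rank 55 of the 512 miRNAs, bta-miR-708 at rank 107, bta-miR-151-5p at rank 144 and bta-miR-28 at rank 305. The mean of bta-miR-151-3p was 5.37 times that of bta-miR-708 and 12.9 times that of bta-miR-151-5p. These are levels in normalized counts, and how well each sequence was ligated and copied into a library was not tested.

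**Figure D1:**
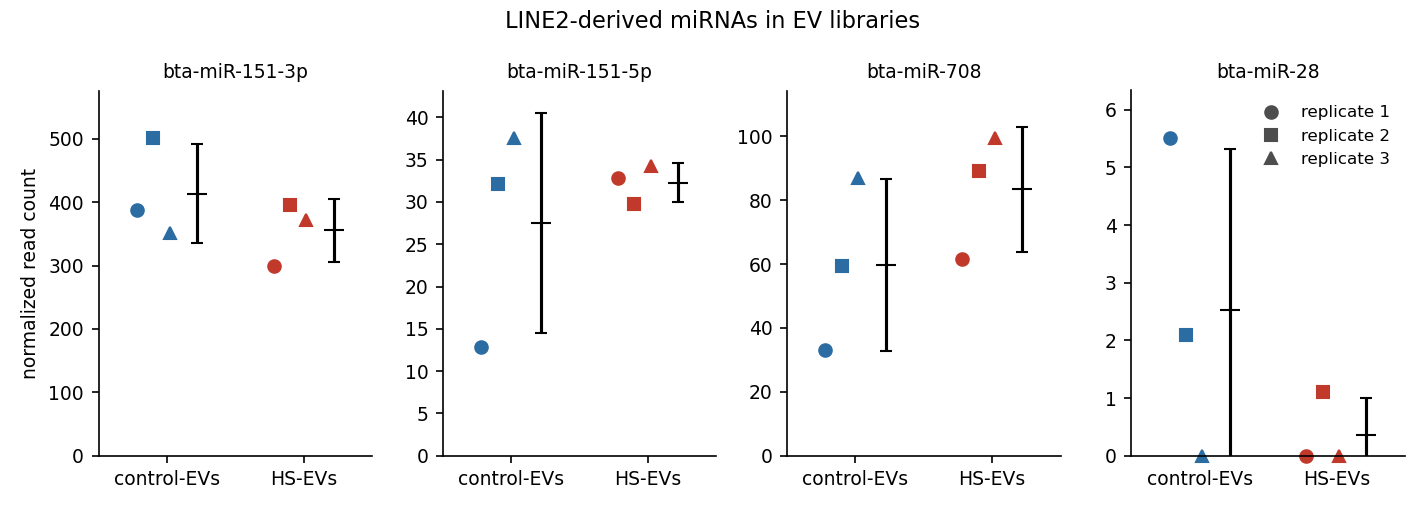
Normalized read counts (y axes, each from 0) of the 4 LINE2-derived miRNAs in control-EVs (blue) and HS-EVs (red). Circles, squares and triangles mark replicates 1 to 3, and the black bars mark the mean ± SD of 3 libraries, cut at 0 for bta-miR-28. The groups overlapped in all 4 miRNAs.

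bta-miR-151-3p, the more abundant arm of its hairpin, had normalized counts of 387, 501 and 352 in control-EVs replicates 1 to 3. In HS-EVs replicates 1 to 3 the counts were 299.9, 396 and 372. The highest value was that of control-EVs replicate 2 and the lowest that of HS-EVs replicate 1, and the groups overlapped. The mean was 413 ± 78.2 for control-EVs and 356 ± 49.9 for HS-EVs (mean ± SD, n = 3 each). With bta-miR-1246 set aside, its share of the reads was 0.274% ± 0.0316 for control-EVs and 0.256% ± 0.0393 for HS-EVs (mean ± SD, n = 3 each). In single libraries this share ranged from 0.214% in HS-EVs replicate 1 (95% Wilson interval 0.170% to 0.269%) to 0.305% in control-EVs replicate 2 (0.284% to 0.328%). As a share of all reads, it ran from 0.00309% in HS-EVs replicate 1 to 0.122% in control-EVs replicate 2. After the scaling of the authors, bta-miR-151-3p varied little between libraries. The SD of its log2(normalized count + 1) over the 6 libraries was 0.24, and of the 130 miRNAs with at least 10 reads in every library only 18 had a smaller SD, where the median SD was 0.43.

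bta-miR-708 had normalized counts of 33.0, 59.3 and 86.9 in control-EVs replicates 1 to 3. In HS-EVs replicates 1 to 3 it had 61.6, 89.1 and 99.4. HS-EVs replicates 2 and 3 lay above every control-EVs library, whereas HS-EVs replicate 1 lay between control-EVs replicates 2 and 3. The mean was 59.8 ± 27.0 for control-EVs and 83.4 ± 19.5 for HS-EVs (mean ± SD, n = 3 each). As a share of the reads on other miRNAs it was 0.0398% ± 0.0184 for control-EVs and 0.0600% ± 0.0141 for HS-EVs (mean ± SD, n = 3 each). They rest on 18, 85 and 44 reads for control-EVs and on 15, 81 and 61 reads for HS-EVs. bta-miR-708 varied more between libraries than bta-miR-151-3p, with an SD of 0.58 on the log2 scale over the 6 libraries. Of the same 130 miRNAs, 97 had a smaller SD.

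bta-miR-151-5p, the less abundant arm, had normalized counts of 12.8, 32.1 and 37.5 in control-EVs replicates 1 to 3. Its counts in HS-EVs replicates 1 to 3 were 32.9, 29.7 and 34.2. Control-EVs replicate 1 was low, from 7 reads, and the other 5 libraries lay close together. The mean was 27.5 ± 13.0 for control-EVs and 32.3 ± 2.32 for HS-EVs (mean ± SD, n = 3 each). Its share of the reads on other miRNAs was 0.0182% ± 0.00843 for control-EVs and 0.0232% ± 0.00120 for HS-EVs (mean ± SD, n = 3 each). bta-miR-151-5p ranked below bta-miR-708 in 6 of 6 libraries. In control-EVs replicate 1, however, the intervals of their shares overlapped (0.00442% to 0.0189% for bta-miR-151-5p and 0.0149% to 0.0371% for bta-miR-708), as they did in HS-EVs replicate 1 (0.0119% to 0.0462% and 0.0266% to 0.0725%).

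The names of bta-miR-28 and bta-miR-708 give no arm, and the other arms of their hairpins were not examined here. The entry bta-miR-28, the seed relative of bta-miR-708, was hardly detected. It had 3, 3 and 0 reads in control-EVs replicates 1 to 3 and 0, 1 and 0 reads in HS-EVs replicates 1 to 3. No library exceeded the floor of 3 reads, so that no fold change is given. Where it had no read, the floor of 3 reads was 0.00408% of the reads on other miRNAs in control-EVs replicate 3, 0.00879% in HS-EVs replicate 1 and 0.00346% in HS-EVs replicate 3. The upper Wilson limits (95%) for 0 reads were 0.00522%, 0.0113% and 0.00443%. The other 3 members reached a normalized count of 10 in all 3 libraries of both groups, and bta-miR-28 in 0 of them.

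Together the 4 members took 0.312%, 0.362% and 0.328% of the reads on other miRNAs in control-EVs replicates 1 to 3. In HS-EVs replicates 1 to 3 they took 0.281%, 0.380% and 0.358%. The mean share was 0.334% ± 0.0256 for control-EVs and 0.340% ± 0.0518 for HS-EVs (mean ± SD, n = 3 each). bta-miR-151-3p made up 73.5% to 88.3% of the reads of the 4 members, bta-miR-708 made up 7.53% to 19.7% and bta-miR-151-5p 2.93% to 8.33%.

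To ask whether HS altered the members in EVs, HS-EVs were compared with control-EVs by limma on log2(normalized count + 1) over all 512 miRNAs. A miRNA was called at a Benjamini-Hochberg adjusted p of 0.3 or less if its log2 fold change was also at least 1 in size, the threshold of the study. None of the 4 members was called, and of all 512 miRNAs limma called 0 (0%). None of the 4 had an unadjusted p of 0.05 or less, against 25 of all 512 (4.88%), and in 0 of the 4 were the groups free of overlap, against 33 of all 512 (6.45%; 3.71% higher and 2.73% lower in HS-EVs). The log2 fold change was above 0 for 2 of the 4 members and for 50% of all 512 miRNAs, with medians of 0.07 and 0.01. Without bta-miR-28, with its 7 reads, the median of the other 3 members was 0.35. edgeR's quasi-likelihood test and DESeq2 on the recovered reads also called 0 of the 4 members, and 3 and 0 of all miRNAs, respectively.

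bta-miR-708 had a log2 fold change of 0.55 with a 95% interval of -0.57 to 1.67 (standard error 0.50, adjusted p = 0.873 from limma, 0.767 to 0.995 over the alternatives). For bta-miR-151-5p it was 0.35 (standard error 0.51, 95% interval -0.78 to 1.49, adjusted p = 0.892 from limma, 0.775 to 0.995 over the alternatives). For bta-miR-151-3p it was -0.21 (standard error 0.43, 95% interval -1.17 to 0.75, adjusted p = 0.940 from limma, 0.671 to 1.0 over the alternatives). The intervals of bta-miR-708 and bta-miR-151-5p reach above a doubling and that of bta-miR-151-3p below a halving, so that differences of this size lie within the intervals that 3 libraries against 3 gave. These fold changes are on the log2(normalized count + 1) scale. On the recovered reads, edgeR gave log2 fold changes of 0.49 for bta-miR-708, 0.19 for bta-miR-151-5p and -0.23 for bta-miR-151-3p, and DESeq2 gave 0.43, 0.15 and -0.26. For bta-miR-28 the adjusted p was 0.873. Control-EVs replicate 1, where bta-miR-708 and bta-miR-151-5p were lowest, weighed on these values. Without it, the log2 fold change of bta-miR-708 was 0.18 and that of bta-miR-151-5p was -0.10. Without control-EVs replicate 3, the log2 fold change was 0.87 for bta-miR-708 and 0.63 for bta-miR-151-5p. Without control-EVs replicate 2, that of bta-miR-151-3p was -0.06. Without HS-EVs replicate 1, the library with 98.6% of its reads on bta-miR-1246, the values were 0.75 for bta-miR-708, 0.34 for bta-miR-151-5p and -0.09 for bta-miR-151-3p, and no member was called.

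The log2 fold change of bta-miR-151-3p was below 0 under all 4 scalings of the libraries that were run, while those of bta-miR-151-5p and bta-miR-708 turned from above to below 0 on all reads. With all reads as the scale, bta-miR-1246 included, the log2 fold changes were -1.73 for bta-miR-151-3p, -1.06 for bta-miR-151-5p and -0.91 for bta-miR-708, where the median of all 512 miRNAs was -0.79. With the scaling of the authors this median was 0.01. HS-EVs replicate 1 decided the values on all reads. There, bta-miR-708 took 0.000635% of all reads, against 0.0160% and 0.0109% in HS-EVs replicates 2 and 3. Without this library, an alternative chosen after seeing the data, they were -0.37 for bta-miR-151-3p, 0.07 for bta-miR-151-5p and 0.48 for bta-miR-708, with a median of -0.20 over all 512 miRNAs. When bta-miR-1246 was left out of the reads used for scaling, the values over all 6 libraries were -0.10, 0.45 and 0.66, in the same order, and the median was 0.09.

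**Figure D2:**
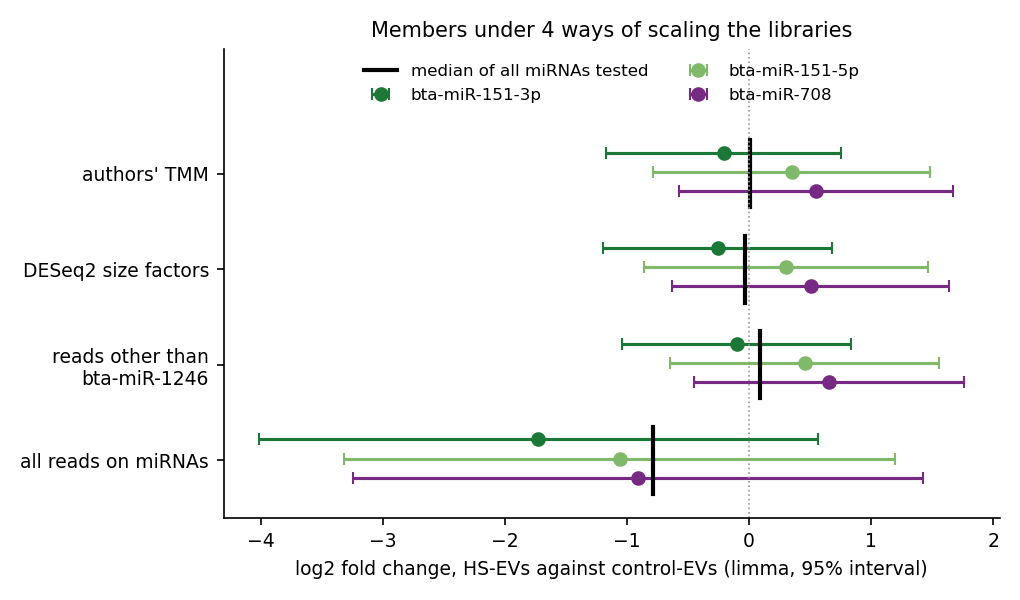
Log2 fold changes of HS-EVs against control-EVs (x axis) from limma, with 95% intervals, for the 3 members with more than 3 reads per library under 4 scalings of the libraries (rows). The black line marks the median of all 512 miRNAs, which lies near 0 in 3 rows and at -0.79 on all reads, and every interval includes 0.

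The arm ratio of miR-151 does not depend on the scaling, since both arms are read in the same library. bta-miR-151-5p took 3.21% of the reads of both arms in control-EVs replicate 1 (7 of 218 reads, 95% Wilson interval 1.56% to 6.48%). It took 6.01% in replicate 2 (46 of 765, 4.54% to 7.93%) and 9.64% in replicate 3 (19 of 197, 6.26% to 14.6%). The control-EVs libraries thus spread widely, and the intervals of replicates 1 and 3 overlapped only at their ends. In HS-EVs, the 5p arm took 9.88% in replicate 1 (8 of 81, 5.09% to 18.3%), 6.98% in replicate 2 (27 of 387, 4.84% to 9.96%) and 8.43% in replicate 3 (21 of 249, 5.58% to 12.5%). HS-EVs replicates 2 and 3 lay within the range of the control-EVs and replicate 1 marginally above it. The mean share was 6.29% ± 3.23 for control-EVs and 8.43% ± 1.45 for HS-EVs (mean ± SD, n = 3 each).

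**Figure D3:**
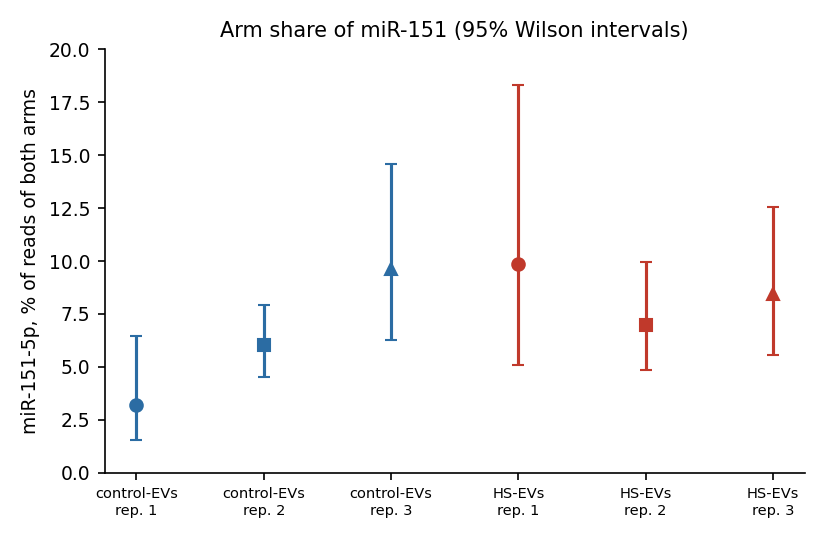
Share of the 5p arm in the reads of both arms of miR-151 (y axis, %) in each EV library, with 95% Wilson intervals for counting error. The 3p arm dominated in all 6 libraries, and the shares ran from 3.21% to 9.64% in control-EVs and from 6.98% to 9.88% in HS-EVs.

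On the log2 scale, with 0.5 reads added to each arm, the ratio of 5p to 3p reads was -3.99 ± 0.81 for control-EVs and -3.41 ± 0.30 for HS-EVs (mean ± SD, n = 3 each). The difference of 0.58 did not exceed the variation between libraries (exact permutation test over the 10 divisions into 3 and 3, two-sided, p = 0.3; the smallest p that this design allows is 0.1). It was 0.16 without control-EVs replicate 1, 0.97 without control-EVs replicate 3 and 0.43 without HS-EVs replicate 1.

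Both arms were listed for 41 hairpins, of which 20 had at least 10 reads in each arm over the 6 libraries. The 3p arm was the more abundant in 8 of the 20 and the 5p arm in 12, and in 18 the same arm was ahead or level in every library. Ordered from the strongest 3p bias, miR-151 was number 5, with a mean log2 ratio of -3.70, between bta-miR-296 (-3.78) and bta-miR-126 (-2.66). bta-miR-199a stood at one end (-6.18) and bta-let-7a at the other (11.20). The groups overlapped in all 20 hairpins. The difference between HS-EVs and control-EVs ranged from -1.26 to 2.18 over the 20, with a median of 0.13, and that of miR-151 was number 8 by size. A smaller SD over the libraries than that of miR-151 (0.63) was seen in 7 hairpins.

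**Figure D4:**
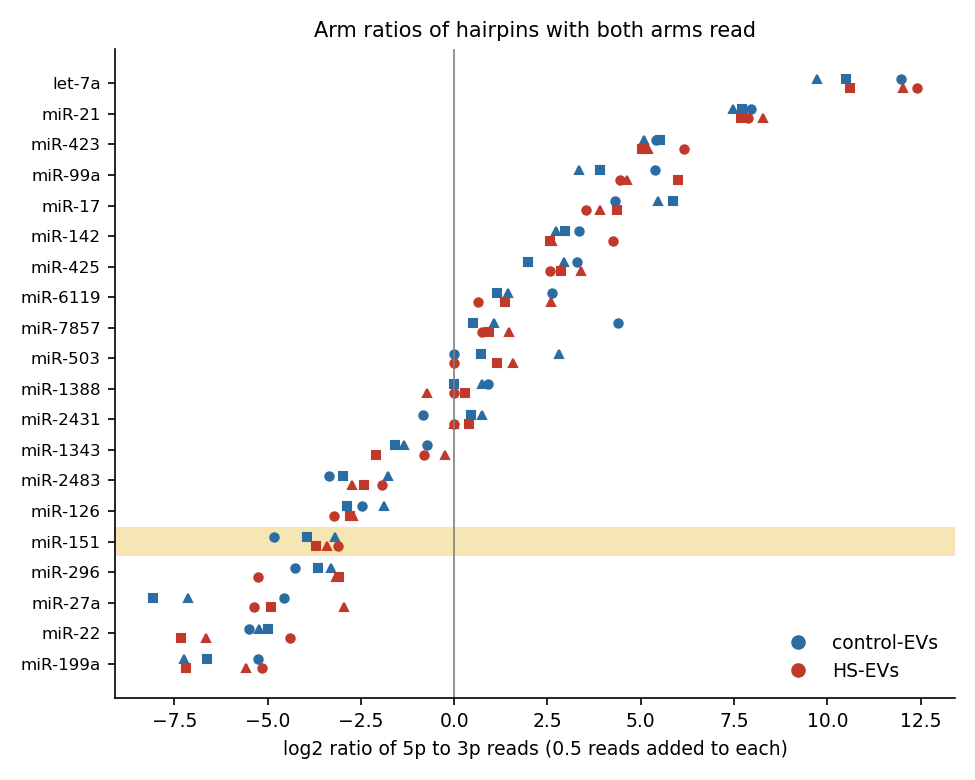
Log2 ratio of 5p to 3p reads (x axis, 0.5 reads added to each) in each library for the 20 hairpins with enough reads in both arms, ordered by their mean. Blue marks control-EVs, red HS-EVs, and circles, squares and triangles replicates 1 to 3. miR-151 (shaded) was number 5 from the 3p end, at -4.82 to -3.11, and the groups overlapped in each hairpin.

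The members were also compared with each other within libraries, by all 6 ratios between them. The number of bta-miR-708 reads was 8.53%, 11.8% and 24.7% of that of bta-miR-151-3p in control-EVs replicates 1 to 3. In HS-EVs replicates 1 to 3 it was 20.5%, 22.5% and 26.8%. The HS-EVs libraries lay close to the highest control-EVs library and above the other 2. The mean log2 ratio was -2.86 ± 0.78 for control-EVs and -2.09 ± 0.18 for HS-EVs (mean ± SD, n = 3 each), a difference of 0.77 (exact permutation test, two-sided, p = 0.3; adjusted over the 6 ratios, p = 0.6). The difference was 0.44 without control-EVs replicate 1, 1.20 without control-EVs replicate 3 and 0.84 without HS-EVs replicate 1. The mean log2 ratio of bta-miR-708 to bta-miR-151-5p was 1.12 ± 0.22 for control-EVs and 1.32 ± 0.39 for HS-EVs (mean ± SD, n = 3 each), a difference of 0.19 (exact permutation test, two-sided, p = 0.6; adjusted p = 0.6), and of 0.07 without control-EVs replicate 2, 0.07 without HS-EVs replicate 2, 0.09 without HS-EVs replicate 3 and 0.42 without HS-EVs replicate 1. The other 4 ratios, the arm ratio among them, also had an adjusted p of 0.6. The 3 ratios with bta-miR-28 rest on its 7 reads, and their sizes are not given.

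The 2 members with at least 10 reads in every library had different profiles over the 6 libraries. The miRNAs closest to each were found by the root mean square difference of log2(normalized count + 1), centred for each miRNA, among the 129 others with as many reads. Closest to bta-miR-151-3p were bta-miR-421 (0.13), bta-miR-195 (0.14) and bta-miR-30a-5p (0.15), where the median difference was 0.42. bta-miR-195 belongs to the miR-15 and miR-16 family and bta-miR-30a-5p to the miR-30 family. Closest to bta-miR-708 were bta-miR-155 (0.29), bta-miR-21-5p (0.29) and bta-miR-132 (0.34), where the median difference was 0.66. miR-155 is known from inflammation, miR-21 from growth and survival, and miR-132 from cAMP signalling, in granulosa cells among others. The values are descriptions over 6 libraries that share their scaling factors.

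**Figure D5:**
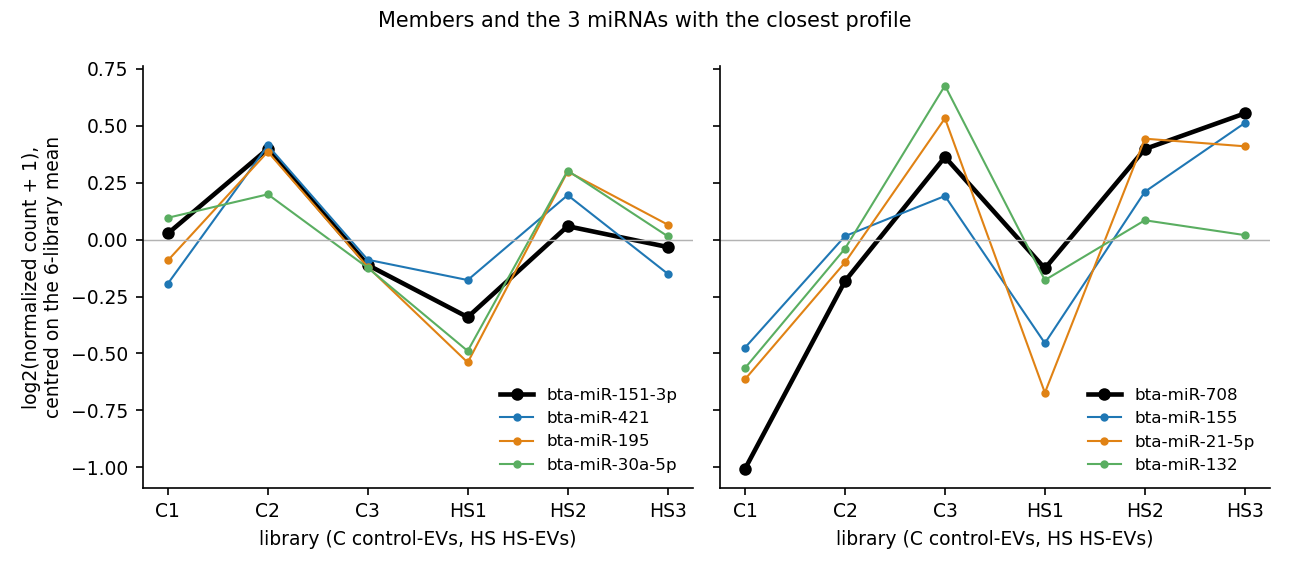
Log2(normalized count + 1), centred on the mean of the 6 libraries (y axis), for bta-miR-151-3p (left, black) and bta-miR-708 (right, black) and the 3 miRNAs closest to each. Lines connect the values of a miRNA and imply no order of libraries. bta-miR-151-3p stayed within -0.34 and 0.40, and bta-miR-708 lay lowest in control-EVs replicate 1, at -1.01.

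Other miRNAs with an origin from LINE2 elements were taken from a list of 8, of which 6 were found. The list was drawn up with earlier results of these data known, and the study had listed 3 of the 6, bta-miR-374a, bta-miR-374b and bta-miR-545-5p, from these same libraries, so that their direction is not independent evidence. Of the 6, 3 had a higher and 3 a lower log2 value in HS-EVs, and bta-miR-493, one of the lower, stayed at or under 2 reads. None of the 6 was called by limma (0 of all 512, 0%). An unadjusted p of 0.05 or less was found for 5 of the 6, against 4.88% of all 512, and 4 of these 5 had at most 13 reads in any library.

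bta-miR-374a, a miRNA of the FTX locus, had 8, 9 and 8 reads in control-EVs replicates 1 to 3 and 6, 41 and 31 reads in the HS-EVs libraries, in the same order. Each HS-EVs value exceeded each control-EVs value after normalization, at 12.3 ± 5.21 for control-EVs and 40.1 ± 13.6 for HS-EVs (mean ± SD, n = 3 each). The log2 fold change was 1.66, with a standard error of 0.52 (limma, adjusted p = 0.626). The groups were also free of overlap in bta-miR-374b, so that this held for 2 of the 6, both higher in HS-EVs, against 3.71% of all 512 miRNAs in that direction. Its normalized counts were 3.79 ± 1.88 for control-EVs and 12.9 ± 4.21 for HS-EVs (SD, n = 3 each), from at most 8 and 13 reads. As shares of all reads the groups overlapped in both. HS-EVs replicate 1 then had 0.000254% for bta-miR-374a, below the 0.00153% to 0.00292% of the control-EVs, and 8.47e-05% for bta-miR-374b, below their 0.000201% to 0.00136%. The reads of these related sequences may have been split between them. bta-miR-545-5p had 1, 0 and 0 reads in control-EVs and 3, 8 and 1 in HS-EVs. bta-miR-95 had 6, 6 and 3 reads in control-EVs and 0, 1 and 3 in HS-EVs. bta-miR-421 was the only one of the 6 with at least 10 reads in every library, and the closest in profile to bta-miR-151-3p. Its mean was 68.4 ± 16.4 for control-EVs and 63.7 ± 9.66 for HS-EVs (mean ± SD, n = 3 each). On the log2 scale the fold change was -0.09, with a standard error of 0.44 (limma, adjusted p = 0.958).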

How the data were processed

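Per the labels and the methods, adapters were trimmed with cutadapt (1.11), reads with the same unique molecular identifier were collapsed, and reads were mapped with Bowtie2 (2.2.2) to the bovine genome (UMD3.1) and to miRBase. The authors deposited 1 normalized read count per miRNA and library, a signal scaled by TMM in edgeR. The lowest value above 0 in each library was taken as 1 read, since all values (100%) were whole multiples of it within 0.001. The recovered totals exceed the reads on annotated miRNAs that the study gives for these libraries, so a recovered read may not be 1 sequenced molecule. Reads of related miRNAs, such as miR-28 and miR-151-5p, could have been split in the counting.

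limma (3.58.1, R 4.3.3, default settings, pseudocount 1) was run on all 512 miRNAs without a filter, and edgeR (4.0.16) and DESeq2 (1.42.0) on recovered reads as alternatives. The limma fit was tested on simulated counts, and the exact permutation test (Python 3.11.15) on small made-up sets of values. The sign-flip test was not checked in this way. The 15 pairs of libraries differed beyond sampling noise (chi-square per degree of freedom 34.3 or more). Named were all 4 members, the LINE2 list, the 3 closest profiles per member, the ends and neighbours in the order of arm ratios, and marker miRNAs. Shared seeds were not searched, as no sequences were used here. The members and lists were chosen with earlier results of these data known. Libraries of the cells themselves were not used here.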

Additional observations from a re-analysis of the deposited data

How the results depend on the processing

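None of the 4 members was called under any alternative that was run. The log2 fold change of bta-miR-151-3p stayed below 0 throughout, between -1.73 and -0.10 under other scalings and tests. On all reads, the signs of bta-miR-151-5p (-1.06) and bta-miR-708 (-0.91) were reversed, but not without HS-EVs replicate 1 (0.07 and 0.48). With single libraries left out, the log2 fold change ranged from -0.32 to -0.06 for bta-miR-151-3p, from -0.10 (without control-EVs replicate 1) to 0.63 for bta-miR-151-5p and from 0.18 to 0.87 for bta-miR-708. The difference in the arm ratio ranged from 0.16 to 0.97, that of bta-miR-708 to bta-miR-151-3p from 0.44 to 1.20 and that of bta-miR-708 to bta-miR-151-5p from 0.07 to 0.42, all with the sign of the full set. The number of all miRNAs called, 0 with limma, was 1 with a pseudocount of 0.5, 2 with a trend, 3 with edgeR's quasi-likelihood test, and 0 to 4 with single libraries left out (4 without control-EVs replicate 2, 3 without HS-EVs replicate 2, 2 without HS-EVs replicate 1). The cause was not tested. As a share of all reads, bta-miR-151-3p took 0.0765% in control-EVs and 0.0383% in HS-EVs, bta-miR-708 took 0.0114% and 0.00918%, and bta-miR-151-5p took 0.00538% and 0.00314%, since bta-miR-1246 enters the denominator.

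Replicates of both groups are numbered 1 to 3, and the sample titles do not link the numbers to shared cultures. The main fit was planned without a replicate block. Deviations of same-numbered libraries correlated by 0.14, 0.14 and 0.08 over miRNAs, against -0.13 to 0.02 for libraries with different numbers. Whether same-numbered libraries share a culture was not tested, and these values cannot decide it. With the replicate number as a block, limma called 0 miRNAs, and the log2 fold changes of the members were as without it (0.55, 0.35 and -0.21; adjusted p = 0.835, 0.851 and 0.903 for bta-miR-708, bta-miR-151-5p and bta-miR-151-3p). Exact sign-flip tests within same-numbered libraries gave p = 0.5 for the arm ratio, 0.25 for bta-miR-708 to bta-miR-151-3p, the smallest that 3 pairs allow, and 0.75 for bta-miR-708 to bta-miR-151-5p. Each of the 6 libraries correlated best with that of its own number. Ratios with bta-miR-28 were run under no alternative but the exact sign-flip test (p = 0.25 each), and the filter on low values left it out. bta-miR-151-5p rests on 7 and 8 reads in the replicates numbered 1, and bta-miR-28 on 7 reads in all.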
